A study of Zea mays with 21 samples.

Results

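The last interval of a maize waterlogging time course is described here: protein-coding gene (PCgene) expression in root tips after 12 h of waterlogging stress (WS_12h), set against root tips after 10 h (WS_10h). Its members are the 3 WS_12h and 3 WS_10h libraries, 6 of the 21 in the series, and the 21800 of 23175 listed PCgenes whose TPM averaged above 1 over these 6 libraries, while the other 1375 fell under that filter. TPM values are read numbers per gene divided by gene length and then by the sum over the library, so they are relative amounts. All plants were seedlings of the inbred line B73 at the second leaf stage, grown in pots and kept under a shallow layer of water, and each library pooled the root tips of 10 primary roots. WS_12h plants had stood in water for 12 h and WS_10h plants for 10 h; libraries taken at 8, 6, 4, 2 and 0 h (WS_0h, before flooding) complete the series. Flooding began in the morning and both late harvests fell in the light period, with no unflooded plants taken at the same hours, so 2 more hours of water and a later hour of the day cannot be told apart. Whether the 2 harvests were extracted or sequenced together is not given in the sources used here.

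Water around a root slows the entry of oxygen, and root cells short of oxygen make ATP by glycolysis and keep glycolysis running by ethanol fermentation, in which pyruvate decarboxylase makes acetaldehyde from pyruvate and alcohol dehydrogenase reduces it. The gas ethylene is trapped in flooded tissue, and its signalling acts with the group VII ethylene response factors, which act in the responses of plants to flooding and low oxygen. A root tip holds the meristem, the elongating zone and the root cap, so a change in bulk TPM may come from fewer cells of a type or from less RNA per cell, which cannot be told apart here. Root markers were not used to check the tissue, because the gene names that the sources used here pair with these identifiers are those in the text of the study.

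The 6 libraries were of similar make. Summed over the listed PCgenes, the libraries held 627630 to 648104 TPM, and scale factors from the median of ratios between libraries lay between 0.970 and 1.03. WS_12h replicate 1 stood apart from the rest: it listed 152 PCgenes at 0 against 58 to 92 in the other five, and 72 PCgenes lay more than 2-fold above, and 72 more than 2-fold below, every other late library on the TPM + 1 scale. In WS_12h replicate 2 these numbers were 26 and 1, and in the other four libraries at most 4 and 8. Call counts, gene differences and gene-set medians for WS_12h against WS_10h were therefore also computed without each library. Distances between libraries and shares by expression level were not.

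The question asked of this interval was how steady expression had become and which genes were still changing. No PCgene, that is, 0% of 21800, passed the cutoffs of the study (Benjamini-Hochberg adjusted p under 0.05 and a log2 difference above 1 in absolute value). They were applied here to a limma fit of log2(TPM + 1) over the 6 libraries. The study applied them to DESeq2 results of flooded time points against WS_0h, so counts given here are not comparable with its counts. By limma 0 passed the adjusted p alone, the lowest being 0.596. An unadjusted p under 0.05 was found for 1037 PCgenes, 4.76% of those tested, 404 of them higher and 633 lower at WS_12h. When all 21 libraries entered 1 fit, 0 PCgenes were called and 504 had an unadjusted p under 0.05. Leaving out WS_12h replicate 2 gave 0 calls as well, with 2151 PCgenes at an unadjusted p under 0.05 and a lowest adjusted p of 0.0512, and without WS_12h replicate 1 these values were 0, 850 and 1.

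A missed threshold does not show that a gene held its level, so the 95% confidence interval of each log2 difference was examined. For 20876 PCgenes (95.8%) the whole interval lay within 1 of 0 on the log2 scale, which bounds their change to less than 2-fold in either direction on the TPM + 1 scale, and for 13179 (60.5%) it lay within 0.5. These intervals were not adjusted for the number of genes. The interval of 924 PCgenes reached past 1, so these data leave a change of that size possible for them. In the median PCgene the interval extended 0.323 to either side of the estimate. The differences themselves were small: their median was -0.01, the middle 90% lay between -0.32 and 0.30, and 97.6% were under 0.5 in absolute value. On the TPM + 1 scale the share with an interval within 1 differed little with the level of a gene. This scale shrinks the differences and intervals of low genes, so it does not show them to be as steady as abundant ones. With 0.1 in place of 1 added to TPM, the share over all tested PCgenes was 90.4%. On the TPM + 1 scale the share was 94.8% of the 7894 PCgenes with a mean of 1 to 5 TPM and 96.2% of the 8456 with 5 to 20 TPM. For the 4345 with 20 to 100 TPM it was 96.5%, and for the 1105 above 100 TPM 96.7%. The share within 0.5 differed more, at 53.5%, 63.3%, 67.2% and 61.8% in the same order. The median interval extended 0.347, 0.311, 0.3 and 0.32 to either side of the estimate.

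**Figure D1:**
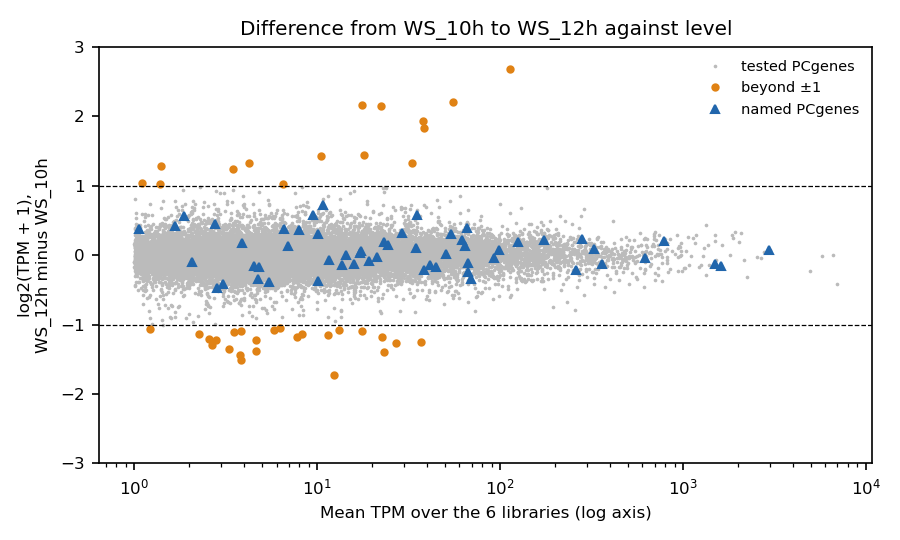
Difference in log2(TPM + 1) between WS_12h and WS_10h (vertical axis, WS_12h minus WS_10h) against the mean TPM over the 6 libraries (horizontal log axis), with 1 point per tested PCgene. Dashed lines mark a difference of 1 in either direction; 15 PCgenes lay above and 24 below them (orange), and the 56 named PCgenes that were tested (blue) all lay between them.

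On average, libraries of the same harvest lay about as far from each other as from libraries of the other harvest. Distance was taken as the root mean square difference of log2(TPM + 1) over the tested PCgenes. Pairs of WS_12h libraries lay 0.315, 0.351 and 0.448 apart, pairs of WS_10h libraries 0.263, 0.325 and 0.326, and the 9 pairs made of 1 library of each harvest between 0.249 and 0.476. The smallest of the 15 distances was that between WS_12h replicate 3 and WS_10h replicate 3, and the largest that between WS_12h replicate 1 and WS_10h replicate 1. WS_12h replicate 2 lay 0.297, 0.295 and 0.299 from the WS_10h libraries, nearer than from WS_12h replicates 1 (0.448) and 3 (0.315). WS_12h replicate 3 lay nearer to WS_10h replicates 2 (0.282) and 3 (0.249) than to any WS_12h library. It was without WS_12h replicate 2 that the lowest limma adjusted p fell to 0.0512. Averaged, the distance was 0.339 between harvests and 0.338 within them (difference 0.00142, exact one-sided permutation test over the 6 libraries, p = 0.4, where 0.1 is the smallest p this design allows).

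**Figure D2:**
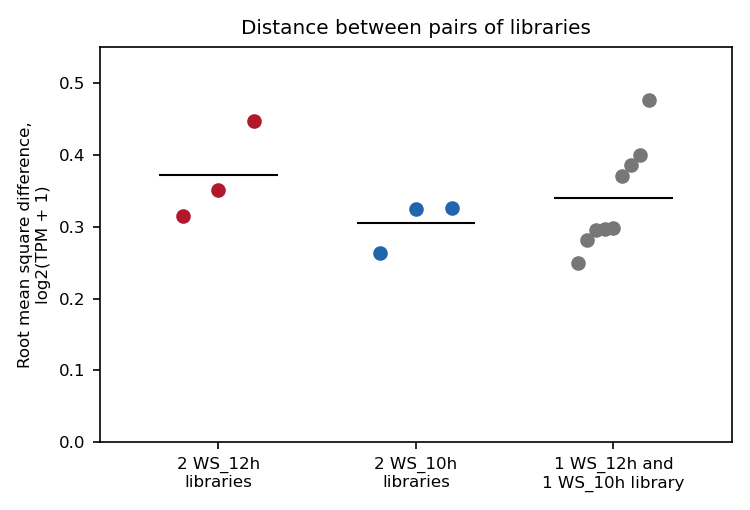
Root mean square difference in log2(TPM + 1) over the 21800 tested PCgenes for the 3 pairs of WS_12h libraries, the 3 pairs of WS_10h libraries and the 9 pairs with 1 library of each (points), with the mean of each kind of pair (line). The pairs across harvests spread from 0.249 to 0.476, and the pairs within a harvest from 0.263 to 0.448.

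Each of the other intervals between neighbouring time points held called PCgenes under the same test, in the order of time 1052 (WS_2h against WS_0h, 4.77% of those tested), 9239 (WS_4h against WS_2h, 40.6%), 7329 (WS_6h against WS_4h, 32.7%), 1653 (WS_8h against WS_6h, 7.47%) and 789 (WS_10h against WS_8h, 3.58%). The last count was 435 without WS_10h replicate 2. The distance between libraries of neighbouring time points exceeded that within them by 0.159 to 0.876 in these 5 intervals (p = 0.1 in each by the exact permutation test, the smallest possible). The share of PCgenes whose 95% interval lay within 1 was 31.7% to 84.4% in these intervals, below the 95.8% of the last one. Replicates also differed less in the last interval, with a median residual standard deviation of 0.171 against 0.196 to 0.263 in the others, which narrows its intervals.

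Whether a gene moved differently in the last interval than in an earlier one was tested directly in a limma fit of all 21 libraries, for the 4 earlier intervals that share no library with it. Only the interval from WS_6h to WS_8h was planned, and the others were added after seeing the data. As 0 PCgenes were called in the last interval, these numbers may largely restate the changes of the earlier intervals. The change from WS_10h to WS_12h differed from the change from WS_6h to WS_8h in 739 of 22783 PCgenes (3.24%), lying above it in 643 and below it in 96, and this number was 417 without WS_10h replicate 3. It differed from the change from WS_0h to WS_2h in 1060 PCgenes (4.65%, 221 above and 839 below), from that from WS_2h to WS_4h in 9558 (42.0%) and from that from WS_4h to WS_6h in 6328 (27.8%).

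**Figure D3:**
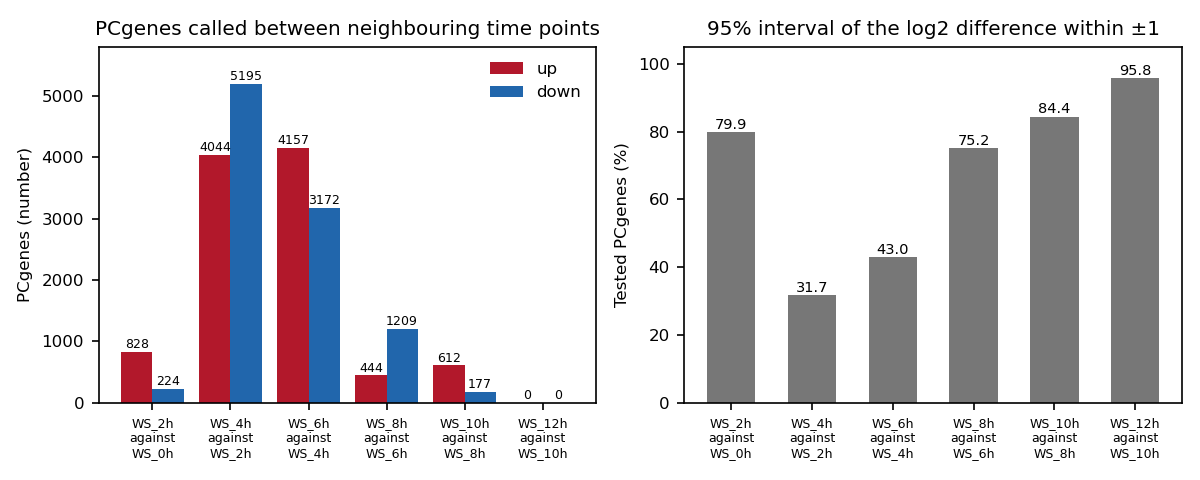
Left, PCgenes called up (red) and down (blue) at the later of each pair of neighbouring time points by limma (adjusted p under 0.05 and absolute log2 difference above 1, 3 libraries per time point). Right, percent of tested PCgenes whose 95% interval of the log2 difference lies within 1 of 0; the counts are 0 and 0 and the share 95.8% for WS_12h against WS_10h.

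Genes that flooding had induced or repressed earlier were then followed through the last interval. They were chosen at WS_6h against WS_0h, whose libraries are not used in the late comparison, and comprised 2082 induced and 1619 repressed PCgenes. Of the 2075 induced PCgenes that were tested, 0 were called between WS_12h and WS_10h, their median log2 difference was -0.06 against -0.01 for all tested PCgenes, and 40.9% were higher at WS_12h against 46.7% of all. This median was -0.02 without WS_10h replicate 1, -0.03 without WS_12h replicate 3, -0.04 without WS_10h replicate 2 and -0.09 without WS_10h replicate 3, and for the 3972 tested PCgenes induced at WS_4h in place of WS_6h it was -0.10, with 28.3% higher at WS_12h. Among the 2075 PCgenes induced at WS_6h, the interval lay within 1 for 1938 (93.4%, against 95.8% of all tested PCgenes). An unadjusted p under 0.05 was found for 200 of them (9.64%, against 4.76% of all). Relative to the mean of each gene over the 6 libraries, their library medians were -0.02, 0.01 and -0.07 at WS_12h and 0.10, 0.04 and -0.06 at WS_10h, so the harvests overlapped.

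The 1451 repressed PCgenes that were tested had a median log2 difference of 0.11, and 70.8% of them were higher at WS_12h. The median was 0.07 without WS_10h replicate 1 and 0.05 for the 5209 tested PCgenes repressed at WS_4h. None of the 1451 was called (0 by limma), and 90 had an unadjusted p under 0.05 (6.20%, against 4.76% of all tested PCgenes). The interval of 1306 of them (90.0%, against 95.8% of all) lay within 1. Their library medians were 0.0841, 0.0079 and 0.0608 at WS_12h and -0.0971, -0.0345 and 0.0042 at WS_10h, so the lowest WS_12h library lay just above the highest WS_10h library. The interval before shares the WS_10h libraries with the last one. Between WS_10h and WS_8h the induced PCgenes had a median log2 difference of 0.67, with 512 called up and 7 down among 2063 (2.78% and 0.803% of all tested PCgenes were called up and down), and the repressed ones one of -0.36, with 4 up and 97 down among 1448.

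The study names 65 PCgene identifiers in its text, of which 60 are listed, 56 were tested here and 4 fell under the filter. It chose many of them for their response in these same libraries. None of the 56 was called between WS_12h and WS_10h, in which 0% of all PCgenes were called, whereas 9 were called up and 0 down between WS_10h and WS_8h, in which 2.78% and 0.803% of all tested PCgenes were called up and down. The 95% interval lay within 1 for 51 of them and within 0.5 for 21, and log2 differences ran from -0.47 to 0.72. Higher values at WS_12h were found for 31 of the 56 (55.4%, against 46.7% of all tested PCgenes), and for 28 to 36 when single libraries were left out, with 28 without WS_12h replicate 1 and likewise without WS_10h replicate 3. In 5 of them (8.93%) every WS_12h library lay above every WS_10h library and in 6 (10.7%) below, where 4.22% and 6.15% of all tested PCgenes did so.

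**Figure D4:**
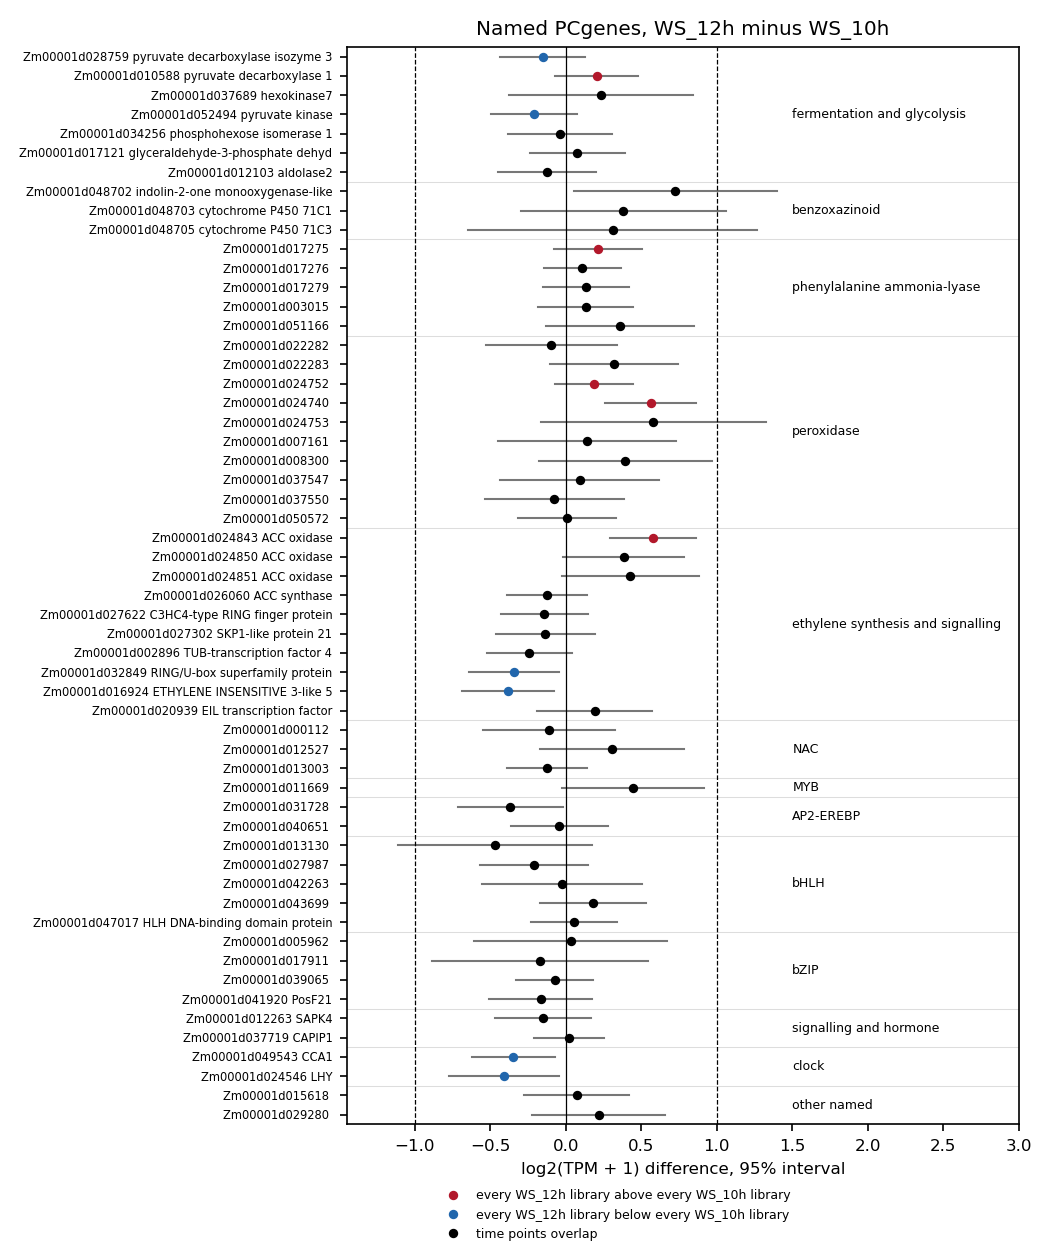
Log2(TPM + 1) difference, WS_12h minus WS_10h, of the 56 named PCgenes that were tested (points, 3 libraries per time point) with 95% confidence intervals (bars), grouped by role. Red points mark the 5 whose WS_12h libraries all lay above the WS_10h libraries, blue points the 6 whose WS_12h libraries all lay below, and the dashed lines a difference of 1.

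Genes of glycolysis and fermentation remained at high levels with little difference between the harvests. Zm00001d028759 (pyruvate decarboxylase isozyme 3) had 1527, 1537 and 1547 TPM at WS_12h, against 1844, 1685 and 1605 TPM at WS_10h. All 3 WS_12h libraries lay below the WS_10h libraries, by a log2 difference of -0.15 (95% interval -0.43 to 0.13). Its companion Zm00001d010588 (pyruvate decarboxylase 1) went the other way, with 814, 867 and 849 TPM at WS_12h against 803, 685 and 712 TPM at WS_10h, a difference of 0.20 (-0.07 to 0.48) without overlap.

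Higher up the pathway, Zm00001d017121 (glyceraldehyde-3-phosphate dehydrogenase 4), which carries out the step that needs NAD+, averaged 3027 ± 197 TPM at WS_12h and 2875 ± 237 TPM at WS_10h (SD, n = 3 each). Zm00001d012103 (aldolase2), which splits the hexose bisphosphate, averaged 1433 ± 22.2 TPM at WS_12h and 1576 ± 227 TPM at WS_10h. Their intervals were -0.24 to 0.39 and -0.45 to 0.20. For Zm00001d034256 (phosphohexose isomerase 1) the difference was -0.04 (-0.38 to 0.31) and for Zm00001d052494 (pyruvate kinase) -0.21 (-0.50 to 0.08). The pyruvate kinase gene had 207, 252 and 263 TPM at WS_12h, all below the 274, 284 and 274 TPM at WS_10h.

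Zm00001d037689 (hexokinase7), which phosphorylates the incoming hexose, was the least reproducible of this group. It had 427, 212 and 286 TPM at WS_12h, against 194, 291 and 281 TPM at WS_10h, and its interval of -0.37 to 0.84 was the widest of the 7. The highest value of this gene belonged to WS_12h replicate 1, the library that stood apart. Of the 7 genes, 3 were higher at WS_12h and 4 lower, and the median difference was -0.04, while without WS_12h replicate 3 or WS_10h replicate 1 4 were higher, with medians of 0.0071 and 0.0484. The 2 genes of this list called up between WS_10h and WS_8h were Zm00001d010588 (log2 difference 1.59) and Zm00001d037689 (1.48).

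Among genes of ethylene synthesis and signalling, 4 of the 10 tested were higher at WS_12h and 6 lower, and none was called. Zm00001d024843 encodes an ACC oxidase, which makes ethylene from ACC in the last step of its synthesis, and it had 45.3, 36.5 and 45.9 TPM at WS_12h, against 28.3, 29.9 and 26.3 TPM at WS_10h. All 3 WS_12h libraries lay above the WS_10h libraries, by a log2 difference of 0.58 (standard error 0.12, 95% interval 0.29 to 0.86, limma adjusted p = 0.877 over all PCgenes). The ACC oxidase genes Zm00001d024850 (0.96, 1.21 and 1.85 TPM at WS_12h, 1.0, 0.59 and 0.75 TPM at WS_10h) and Zm00001d024851 (1.40, 1.95 and 2.91 TPM at WS_12h, 1.58, 1.0 and 1.21 TPM at WS_10h) had differences of 0.38 and 0.43 with overlapping harvests. How far reads are shared between these near copies was not analysed here. Zm00001d026060 (ACC synthase), which makes ACC, had 14.3, 14.7 and 16.6 TPM at WS_12h against 18.1, 16.7 and 15.2 TPM at WS_10h (-0.12, interval -0.39 to 0.14).

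Of the signalling members, Zm00001d016924 (ETHYLENE INSENSITIVE 3-like 5, a relative of the transcription factor that carries the ethylene signal in Arabidopsis) had 5.06, 3.75 and 5.13 TPM at WS_12h, against 6.05, 6.56 and 6.30 TPM at WS_10h. Zm00001d032849 (RING/U-box superfamily protein) had 62.3, 66.6 and 55.3 TPM at WS_12h, against 78.6, 87.8 and 68.5 TPM at WS_10h. Both genes were lower in every WS_12h library, with differences of -0.38 (-0.69 to -0.08) and -0.34 (-0.64 to -0.04), and neither passed the adjusted p (0.877 for each, limma). For Zm00001d002896 (TUB-transcription factor 4) and Zm00001d027302 (SKP1-like protein 21) the differences were -0.24 and -0.14 and the harvests overlapped, as for Zm00001d027622 (C3HC4-type RING finger protein, -0.14) and Zm00001d020939 (EIL transcription factor, 0.19). All 10 tested genes of this list had intervals within 1.

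None of the tested NAC (3), MYB (1), AP2-EREBP (2), bHLH (5) and bZIP (4) genes separated the harvests. Of all tested PCgenes 10.4% did so in either direction, so a count of 0 in so few genes is close to that share. Among NAC genes, Zm00001d013003 had 329, 337 and 367 TPM at WS_12h against 364, 411 and 356 TPM at WS_10h, a log2 difference of -0.13 (-0.39 to 0.14), after a difference of 1.57 between WS_10h and WS_8h that was called. Zm00001d012527 (0.31) and Zm00001d000112 (-0.11) overlapped between the harvests. The AP2-EREBP gene Zm00001d040651 averaged 90.9 ± 5.68 TPM at WS_12h and 94.4 ± 15.5 TPM at WS_10h (SD, n = 3 each), and Zm00001d031728 of the same family had 8.06, 10.9 and 7.43 TPM at WS_12h against 11.9, 12.2 and 10.4 TPM at WS_10h (-0.37, interval -0.71 to -0.02), with WS_12h replicate 2 above WS_10h replicate 3.

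Among bHLH genes the differences ran from -0.47 (Zm00001d013130, interval -1.11 to 0.17, with 5.38 TPM in WS_10h replicate 1 and 1.48 to 3.10 TPM in the other five libraries) to 0.18 (Zm00001d043699). Among bZIP genes they ran from -0.17 (Zm00001d017911) to 0.03 (Zm00001d005962), with -0.07 for Zm00001d039065 and -0.17 for Zm00001d041920 (PosF21). The MYB gene Zm00001d011669 was low, with 3.86, 3.57 and 2.56 TPM at WS_12h and 1.49, 3.07 and 2.09 TPM at WS_10h. The kinase gene Zm00001d012263 (SAPK4) and Zm00001d037719 (CAPIP1) had differences of -0.15 and 0.02, both with intervals within 0.5. Zm00001d015618, from a co-expression module enriched in phenylpropanoid genes, and Zm00001d029280, from a module whose pathway genes are peroxidases, had differences of 0.07 and 0.22 with overlapping harvests.

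All 5 phenylalanine ammonia-lyase genes, whose enzyme opens the phenylpropanoid pathway that leads to lignin, were higher at WS_12h on average. Their differences were 0.11 to 0.36 with a median of 0.13, and 46.7% of all tested PCgenes were higher. The means of all 5 had been lower at WS_6h than at WS_0h. Of the tested PCgenes repressed at WS_6h, 70.8% were higher at WS_12h, with a median of 0.11, so the rise is not particular to this family. How far reads are shared between these 5 genes was not analysed here. Only Zm00001d017275 separated the harvests, with 216, 171 and 174 TPM at WS_12h against 169, 158 and 154 TPM at WS_10h (0.21, interval -0.08 to 0.50). Its WS_12h replicate 1 was the highest of the 6 libraries.

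Peroxidases, which use hydrogen peroxide and join lignin units in the wall, were higher at WS_12h in 8 of the 10 tested genes, with a median log2 difference of 0.16 against -0.01 for all PCgenes. The tested PCgenes repressed at WS_6h had a median of 0.11. Without WS_12h replicate 1 only 5 of the 10 were higher, with a median of 0.0147, and without any other single library 7 to 9 were, with medians of 0.0861 (without WS_10h replicate 1), 0.0903 (without WS_10h replicate 3) and 0.25 to 0.28 (without any of the others). Zm00001d024740 had 2.06, 2.46 and 2.74 TPM at WS_12h, against 1.25, 1.48 and 1.21 TPM at WS_10h, a difference of 0.56 (standard error 0.13, interval 0.26 to 0.86, limma adjusted p = 0.877). Zm00001d024752 had 143, 135 and 126 TPM at WS_12h against 123, 124 and 107 TPM at WS_10h (0.19, interval -0.07 to 0.45), again with no overlap. In the most abundant one, Zm00001d037547, WS_12h replicate 1 held 466 TPM and the other five libraries 269 to 376 TPM, and the difference was 0.09. Zm00001d024753, with 18.2, 7.34 and 9.50 TPM at WS_12h against 4.98, 9.83 and 6.77 TPM at WS_10h, also had its highest value in that library.

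Benzoxazinoids are defence compounds of grasses, made by a chain of cytochrome P450 enzymes. The 3 tested genes of this pathway varied between libraries: Zm00001d048702 (indolin-2-one monooxygenase-like) had 14.4, 18.6 and 8.43 TPM at WS_12h, against 8.58, 9.56 and 5.23 TPM at WS_10h. Its difference of 0.72 (interval 0.05 to 1.40) was the highest among the 56 named PCgenes, with the harvests overlapping. Zm00001d048703 (cytochrome P450 71C1) and Zm00001d048705 (cytochrome P450 71C3) had differences of 0.38 and 0.31. The intervals of all 3 reached past 1.

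The clock genes CCA1 (Zm00001d049543) and LHY (Zm00001d024546) encode related MYB factors that peak at dawn and repress evening genes in Arabidopsis. CCA1 had 3.99, 4.52 and 3.71 TPM at WS_12h, against 5.58, 4.93 and 5.86 TPM at WS_10h, and LHY had 3.26, 2.28 and 1.96 TPM at WS_12h, against 3.96, 3.35 and 3.51 TPM at WS_10h. Every WS_12h library lay below every WS_10h library in both genes, as in 6.15% of all tested PCgenes. The log2 differences were -0.35 (interval -0.62 to -0.07) and -0.41 (-0.77 to -0.05), and neither passed the adjusted p (0.877 for each by limma). From WS_0h to WS_12h in steps of 2 h, mean TPM of CCA1 was 20.7, 15.1, 9.10, 9.80, 5.36, 5.46 and 4.07, and that of LHY 15.2, 13.2, 10.97, 10.3, 5.13, 3.61 and 2.50. The lowest mean of the course was thus at WS_12h for both.

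**Figure D5:**
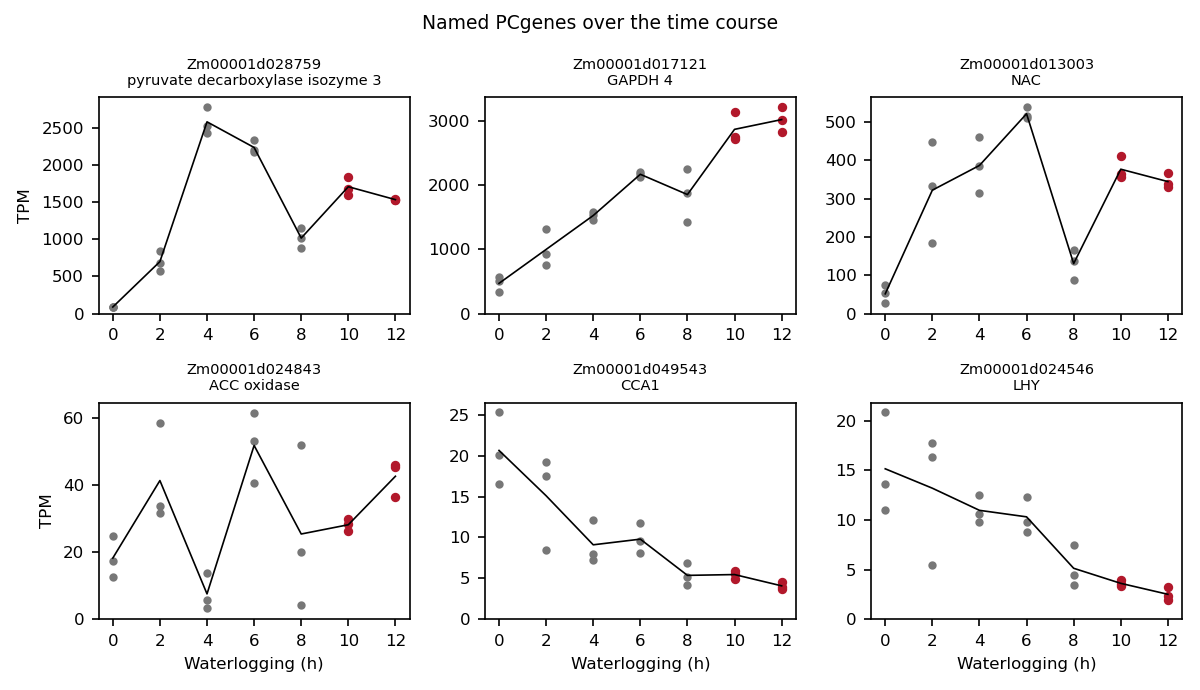
TPM of 6 named PCgenes in all 21 libraries (points) against hours of waterlogging, with the mean of the 3 libraries at each time point (line); WS_10h and WS_12h libraries are red. Pyruvate decarboxylase isozyme 3, glyceraldehyde-3-phosphate dehydrogenase 4 (GAPDH 4) and the NAC gene have log2 differences of -0.15, 0.08 and -0.13 between WS_12h and WS_10h. The red points of the last time points do not overlap in pyruvate decarboxylase isozyme 3, the ACC oxidase gene, CCA1 and LHY. They overlap in GAPDH 4 and the NAC gene.

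A log2 difference above 1 was found for 15 PCgenes and one below -1 for 24, and of these 5 and 12 separated the harvests, where 4.22% and 6.15% of all tested PCgenes did so in the higher and lower direction. The choice by size of difference partly fixes this separation. Their median level was 6.53 TPM, against 7.87 TPM for all tested PCgenes. In all 15 of the higher ones the highest library was WS_12h replicate 1, and without it 7 of the 15 kept a difference above 1. In 17 of the 24 lower ones the lowest library was again WS_12h replicate 1, and without it 10 of the 24 stayed below -1. Leaving out any other library kept at least 11 of the 15 and 18 of the 24.

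The highest difference belonged to Zm00001d001139, with 490, 120 and 21.3 TPM at WS_12h against 16.3, 12.4 and 20.5 TPM at WS_10h (2.69, interval 0.54 to 4.83). Its WS_12h libraries spread widely, and the lowest lay just above the highest WS_10h library. Among PCgenes with a difference above 1 the lowest p belonged to Zm00001d001436, with 2.87, 1.98 and 2.33 TPM at WS_12h against 0.10, 0.59 and 0.53 TPM at WS_10h (1.28, interval 0.86 to 1.70, limma adjusted p = 0.596).

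On the lower side, Zm00001d011303 had 2.62, 8.38 and 4.46 TPM at WS_12h against 29.9, 18.7 and 10.2 TPM at WS_10h (-1.73, interval -2.71 to -0.76), and its mean had been 91.6 TPM at WS_8h and 117 TPM at WS_0h. Zm00001d028103 had 1.94, 2.88 and 2.24 TPM at WS_12h against 5.90, 8.71 and 6.05 TPM at WS_10h (-1.23, interval -1.62 to -0.83, limma adjusted p = 0.596), and had averaged 23.9 TPM at WS_8h. Both thus stood higher at WS_8h than in either late harvest, but this held for WS_8h against WS_10h in only 11 of the 24 PCgenes below -1 (45.8%), against 53.7% of all tested PCgenes, a comparison that shares the WS_10h libraries. These 4 genes were picked after their values were seen, 2 for the largest difference in each direction and 2 for the lowest p beyond a difference of 1, and their names are not paired with these identifiers in the sources used here.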

How the data were processed

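The deposited PCgene values are TPM. According to the labels and the methods of the study, the authors assessed read quality (FastQC), filtered the reads (Trimmomatic), mapped them to version 4 of the B73 genome (HISAT2 2.0.5) and derived TPM with featureCounts. Read depth is not in TPM, so precision is judged from replicates alone. Each replicate is a pool of root tips. Where the 6 libraries averaged more than 1 TPM, a PCgene was fitted as log2(TPM + 1) with limma 3.58.1 (R 4.3.3; a mean per time point, mean-variance trend, Benjamini-Hochberg adjustment). A fold on this scale understates the change of low genes. The fit was tested on simulated data. Figures used matplotlib 3.10.9. Alternatives were a pseudocount of 0.1, all 21 libraries in 1 fit, no trend, no filter or one of 5 TPM, a replicate block, median-ratio scaling and leaving out each library. Named genes are those in the text of the study, plus 4 extremes. Lists by annotated name could not be formed, since 0 identifiers matched the RefSeq gene table at hand. lncRNA values were not analysed here. Members and lists were chosen with earlier results of these data known.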

Additional observations from a re-analysis of the deposited data

How the results depend on the processing

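The count of 0 called PCgenes between WS_12h and WS_10h was 0 under every alternative run, with lowest adjusted p values from 0.0512 (without WS_12h replicate 2) to 1 (without WS_12h replicate 1 or WS_10h replicate 1). The share of PCgenes with an interval within 1 ran from 90.4% (pseudocount of 0.1 TPM) to 96.7% (without WS_12h replicate 1), and with a band of 0.5 it was 60.5%. No named PCgene was called under any alternative. Over 60 named or singled-out PCgenes and 767 such values, 4 moved by more than 1 residual SD, and 16 PCgenes took the other sign in 27 values. With the replicate block 0 PCgenes were called and 892 had an unadjusted p under 0.05. Deviations of libraries with the same number correlated at -0.175, -0.174 and 0.273 across PCgenes. Deviations within a harvest sum to 0 over 3 libraries, so these values cannot settle whether equal numbers mark libraries handled together. Each of the replicate numbers 1 and 2 correlated better with another number than with its own, while number 3 correlated best with its own. The count for WS_10h against WS_8h was 435 to 575 without single WS_10h libraries. The median difference of repressed PCgenes was 0.0513 when they were chosen at WS_4h in place of WS_6h. The number of PCgenes whose last change differed from that from WS_6h to WS_8h was 417 to 583 without single libraries. Set against the intervals ending at WS_2h, WS_6h and WS_4h it was 1060, 6328 and 9558, alternatives chosen after seeing the data. Precision is limited by 3 libraries per time point, and TPM do not show the read depth. Counts and medians of the gene lists without single libraries were added after seeing the data.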
